A study of Mus musculus with 27 samples.

Results

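The basal and wound keratins were 9 genes, Krt5, Krt14, Krt15, Krt6a, Krt6b, Krt16, Krt17, Krt75 and Krt32. They were found by their Entrez identifiers among the 24454 genes of the table, and all 9 were present. RNA was sequenced from 9 cell lines grown from thoracic mammary tumours of FVB/N mice carrying the MMTV-PyMT transgene, in which a viral promoter drives the polyoma middle T oncogene in mammary epithelium. Each line was cultured with no cytokine, for 3 days with 100 ng/ml Wnt3a, or for 4 days with 2 ng/ml TGFβ, which gave 27 libraries in 12 groups. Untreated libraries were labelled as 4 days, so the Wnt3a comparison sets 3 days beside 4.

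All 9 lines carried the oncogene and a mutant copy of both Bcl9 and Bcl9L, coactivators of β-catenin. ΔHD1 removes the domain that binds Pygopus, and ΔHD2 removes the one that binds β-catenin. In the ΔHD1/fl and ΔHD2/fl lines the other copy was floxed and intact. In the ΔHD1/- and ΔHD2/- lines it had been deleted with an adenovirus carrying Cre and GFP, whereas the floxed lines had received a virus with GFP alone. There were 2 lines of each genotype and 3 of ΔHD2/-, and the labels give 2 mice per genotype as their source. No comparison with a line free of mutant alleles was made. Per the study's methods, fibroblasts were depleted by differential trypsinization when the lines were set up.

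Keratins are intermediate filament proteins that assemble only as pairs of a type I and a type II chain. Krt5 and Krt14 form the filaments of basal keratinocytes and of basal and myoepithelial mammary cells, whereas luminal mammary cells use Krt8 and Krt18. Krt6a, Krt6b, Krt16 and Krt17 are low in resting interfollicular epidermis and are induced when skin is wounded or grows too fast. Krt15 marks resting basal cells and hair follicle stem cells, Krt75 belongs to the companion layer of the hair follicle, and Krt32 is a keratin of the hair cuticle.

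The type II members Krt5, Krt6a, Krt6b and Krt75 lie together on chromosome 15 and the type I members Krt14, Krt15, Krt16, Krt17 and Krt32 on chromosome 11, all on the minus strand (GRCm38). Krt6a (chr15:101689928-101694305) and Krt6b (chr15:101676023-101680293) are close copies. Their coding sequences were 97.8% identical, with 37 of 1662 aligned bases different and a longest identical run of 280 bases. Of 1530 aligned coding windows of 101 bases, the read length in the labels, 638 were identical in both genes. The study's methods also give reads of 101 bases, but name a sequencing kit of fewer cycles elsewhere. With shorter reads more positions would be shared than are given here. The first line below shows an identical window, coding bases 34 to 134, from which a read cannot be assigned to either gene. The 2 lines after it show the window where the copies differ most, coding bases 768 to 868, with the 14 differing bases in capitals (GENCODE M21 transcripts).
Krt6a and Krt6b: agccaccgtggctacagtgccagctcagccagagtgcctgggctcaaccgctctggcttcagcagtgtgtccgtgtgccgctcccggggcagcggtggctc
Krt6a: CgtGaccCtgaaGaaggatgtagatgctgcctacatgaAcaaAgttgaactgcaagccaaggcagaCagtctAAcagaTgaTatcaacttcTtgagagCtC
Krt6b: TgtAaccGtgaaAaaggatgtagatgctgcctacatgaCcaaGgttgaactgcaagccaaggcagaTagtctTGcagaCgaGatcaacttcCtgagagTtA

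Over the whole transcript, 33.65% of the read positions of Krt6a and 30.35% of those of Krt6b also matched another gene. The share was 24.1% for Krt16, 2.75% for Krt14 and 2.29% for Krt5, and 0 for Krt15, Krt17, Krt75 and Krt32. Krt16 was closest to Krt14 among the members, with 86.5% identity in the coding sequence. The authors kept reads with a unique hit, so reads from such positions would be lost and the levels of Krt6a, Krt6b and Krt16 understated, while a split between Krt6a and Krt6b rests on the positions that differ. Krt32 and Krt6a also overlap antisense genes, but the library kit keeps the strand. Whether the counting used it is not given in the sources used here.

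The 3 core promoters below (RefSeq, GRCm38, minus strand, 70 bases before to 20 after the start) belong to the basal keratin Krt5 and to the hair follicle keratins Krt75 and Krt32, the members with a usable entry in the promoter table. Promoters of Krt14, Krt15, Krt6a, Krt6b, Krt16 and Krt17 were not used here. Capitals mark a TATA-like motif, ATAAAA. It begins at position -29 from the start of Krt5, -32 of Krt75 and -28 of Krt32. The motif was chosen after these sequences were seen, was searched on the gene's strand only, and begins between positions -45 and -15 in 711 of 32851 promoters (2.16%).
Krt5 chr15:101712886-101712975: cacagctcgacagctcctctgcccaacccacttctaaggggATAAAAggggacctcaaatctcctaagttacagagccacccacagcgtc
Krt75 chr15:101573885-101573974: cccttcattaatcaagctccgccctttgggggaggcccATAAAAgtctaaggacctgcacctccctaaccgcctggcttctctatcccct
Krt32 chr11:100088250-100088339: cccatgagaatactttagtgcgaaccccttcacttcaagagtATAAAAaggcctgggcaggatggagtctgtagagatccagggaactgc

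Library depth ran from 21.86 to 33.69 M reads (median 25.96 M), and 3 reads, taken as the floor below which no fold is given, came to 0.089 to 0.137 CPM (counts per 1000000 reads). These floors cover counting error only. Bcl9 (32.4 to 104 CPM) and Bcl9l (70.7 to 346 CPM) were read in every library, but these gene counts cannot show the deleted domains. ΔHD1/fl line 2 and ΔHD1/- line 2 stood apart. Cdh1, the epithelial cadherin, was at 0.522 and 0.237 CPM in them without cytokine against 606 to 1145 CPM in the other 7 lines, and Vim, a mesenchymal filament gene, was at 4188 and 3678 CPM. The summed level of 8 fibroblast markers was 2649 and 6466 CPM in these lines without cytokine against 1.05 to 219.6 CPM in the other 7, and 4157 and 7612 CPM with Wnt3a against 290.4 CPM or less. ΔHD2/- lines 2 and 3 were nearly the same as each other. With 2 mice as the source of 3 lines they may share a mouse, which is not given in the sources used here. Their profiles correlated at r = 0.993 to 0.997 in the 3 treatments, against 0.807 to 0.957 for the other 15 comparisons of lines of a genotype, and no member differed between them by more than 0.89 on the log2 scale. Results are therefore also given without both lines of low Cdh1 or with ΔHD2/- lines 2 and 3 averaged where that changed them, the former an alternative chosen after seeing the data. These are bulk samples, so fewer cells of a type and less RNA per cell cannot be told apart.

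The plot of levels shows each keratin in every library. Krt14 was the only member above 1 CPM in all 27 libraries, and Krt16 was above 1 CPM in 25, Krt5 in 19, Krt6a in 18, Krt17 in 12, Krt6b in 8, Krt15 in 5, Krt75 in 4 and Krt32 in 2. Per kilobase of exon, the scale on which genes can be compared, the untreated median over the 9 lines was 826 CPM per kb for Krt14, 33.3 for Krt5, 11.5 for Krt6a and 7.10 for Krt16. Krt17, Krt15, and Krt6b had medians of 0.216, 0.155 and 0.121 CPM per kb, so that these 3 were near the floor in most lines and high in a few.

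**Figure D1:**
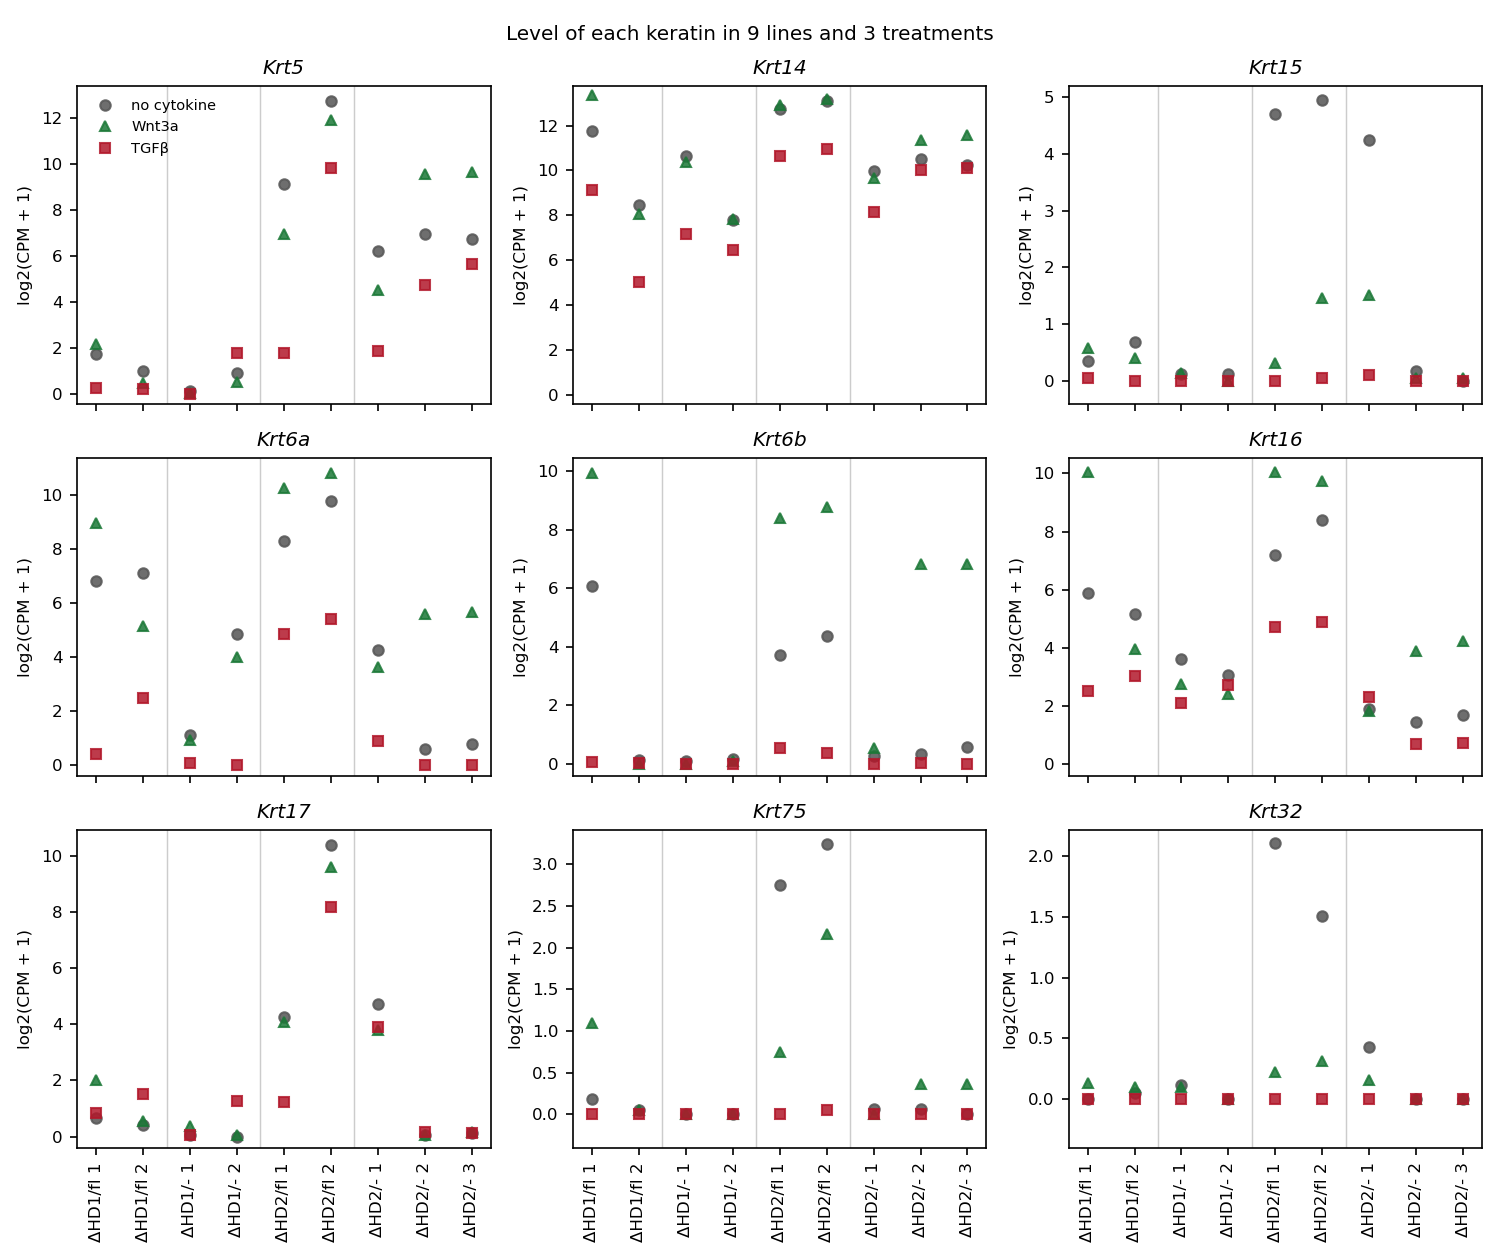
Level of each of the 9 keratins as log2(CPM + 1) on the vertical axis, which has its own scale in each panel, for the 9 lines on the horizontal axis; each point is 1 library and its colour and shape give the treatment. ΔHD2/fl lines carried the highest untreated levels of Krt5, Krt14, Krt15, Krt6a, Krt16, Krt75 and Krt32, and TGFβ libraries lay lowest in all 9 lines for Krt14 and Krt6a.

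Krt5, the type II basal keratin, separated the 2 families of lines. Without cytokine it stood at 2.38 and 1.04 CPM in the ΔHD1/fl lines and at 0.128 and 0.920 CPM in the ΔHD1/- lines. It stood at 559 and 6826 CPM in the ΔHD2/fl lines and at 73.2, 123 and 107 CPM in the ΔHD2/- lines. Every ΔHD2 line was above every ΔHD1 line, an order whose share among all genes was not computed. The untreated ΔHD2 levels took part in the choice of the members, and the ΔHD1 lines include those of low Cdh1. The 2 ΔHD2/fl lines themselves differed by more than the 3 ΔHD2/- lines did.

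Krt14, its type I partner, was present in all lines, and its order of lines was not that of Krt5. Its untreated levels were 3491 and 356 CPM in ΔHD1/fl, 1594 and 223 CPM in ΔHD1/-, 6788 and 8746 CPM in ΔHD2/fl, and 1000, 1453 and 1207 CPM in ΔHD2/-. The highest line was 39.2 times the lowest, and the low values were those of the lines of low Cdh1. On the per kb scale Krt14 was 1.60 times Krt5 in ΔHD2/fl line 2, 15.2 times in ΔHD2/fl line 1 and 14.1 to 17.1 times in the ΔHD2/- lines. In ΔHD1/fl line 1, in which Krt5 was almost silent, it was 1835 times Krt5. Over the 27 libraries, which share lines, the log2 values of Krt5 and Krt14 correlated at r = 0.67.

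Krt6a, the main Krt6 transcript, had untreated levels of 111 and 139 CPM in ΔHD1/fl, 1.16 and 27.8 CPM in ΔHD1/-, 312 and 873 CPM in ΔHD2/fl, and 18.0, 0.495 and 0.712 CPM in ΔHD2/-. Krt16, its type I partner, stood at 58.8 and 34.5, 11.1 and 7.33, 146 and 332.05, and 2.75, 1.76 and 2.22 CPM in the same order. In both families the floxed lines were above the deleted lines for both genes, with no overlap. This order was shared by 16.1% of all genes tested in ΔHD1 and 14.9% in ΔHD2. The ΔHD2 difference took part in the choice of the members. Krt6b without cytokine was clear of the floor by far only in ΔHD1/fl line 1 (67.7 CPM) and the ΔHD2/fl lines (12.3 and 19.8 CPM). The other 6 lines held 0.0855 to 0.502 CPM.

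Krt17, which like Krt16 is induced in wounded skin, was dominated by 1 line. ΔHD2/fl line 2 held 1361 CPM, ΔHD2/fl line 1 held 18.0 CPM and ΔHD2/- line 1 held 25.1 CPM. The remaining 6 lines held 0.595 CPM or less. Krt15 showed the same 3 lines, at 29.9 CPM in ΔHD2/fl line 2, 24.9 CPM in ΔHD2/fl line 1 and 18.1 CPM in ΔHD2/- line 1. It was at 0.597 CPM or less elsewhere. Among the ΔHD2/- lines, line 1 stood far above lines 2 and 3 for both genes (0.135 CPM or less), so 1 line set the ΔHD2/- mean.

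Krt75 and Krt32 were rare transcripts. Without cytokine Krt75 was at 5.73 and 8.52 CPM in the ΔHD2/fl lines and at or under 0.137 CPM in the other 7. Krt32 was at 3.32 and 1.85 CPM in the ΔHD2/fl lines, 0.349 CPM in ΔHD2/- line 1 and at most 0.0855 CPM elsewhere. Krt32 passed the filter on low values only through those 2 untreated ΔHD2/fl libraries, and Krt75 passed through 4 libraries of which 3 were ΔHD2/fl. All 9 members passed the filter, which 13270 genes passed in all.

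The next comparison set ΔHD2/- beside ΔHD2/fl lines and asked what loss of the floxed copy did to the keratins where β-catenin binding was already lost from the other copy. The members were chosen by this difference, and Krt75 and Krt32 also by the TGFβ response of the ΔHD2 lines, so the values are a description and carry no test. Without cytokine all 9 fitted differences of log2(CPM + 1) were below 0, with a median of -3.65. The ΔHD2/- lines were below the ΔHD2/fl lines without overlap in 8 of 9 members, a pattern that 14.9% of all genes tested shared, with Krt17 the exception. The largest differences were -7.16 for Krt6a and -6.10 for Krt16. The others were -5.70 for Krt17, -4.29 for Krt5, -3.65 for Krt6b, -3.34 for Krt15, -2.96 for Krt75, -2.67 for Krt14 and -1.67 for Krt32. The lowest ΔHD2/fl line was 53.1 times the highest ΔHD2/- line for Krt16, 24.5 times for Krt6b, 17.3 times for Krt6a, 4.67 times for Krt14 and 4.53 times for Krt5. Krt16 averaged 239 ± 131 CPM over the 2 floxed lines and 2.24 ± 0.498 CPM over the 3 deleted lines (mean ± SD), and Krt14 averaged 7767 ± 1385 and 1220 ± 227 CPM. Krt15 missed overlap narrowly, at 1.38 times, because ΔHD2/- line 1 kept 18.1 CPM. The summed level of 8 contractile myoepithelial markers was also lower in the deleted lines, at 83.4 and 81.7 CPM in ΔHD2/fl and 11.9, 0.315 and 0.419 CPM in ΔHD2/-. Of the 6 such genes tested 1 was called lower (Oxtr, -4.99, limma adjusted p = 0.0073), where 0.528% of all genes were. Of 14 genes of basal adhesion, Cdh3, the basal cadherin, alone was called (-4.42, limma adjusted p = 0.0038). The sum of the 14 overlapped, at 4352 and 7034 CPM in ΔHD2/fl and 6228, 4267 and 3884 CPM in ΔHD2/-. The part of these markers in the keratin differences was not tested.

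Under Wnt3a the median difference was -2.19 and 7 of 9 members did not overlap, against 15.6% of genes. Krt16 remained far apart, with 1050 and 851 CPM in ΔHD2/fl and 2.54, 13.9 and 18.0 CPM in ΔHD2/-. Krt5 came to overlap, since ΔHD2/- lines 2 and 3 held 749 and 796 CPM, between the 124 and 3809 CPM of the ΔHD2/fl lines. Without ΔHD2/fl line 1 the median was -3.99. The log2 differences were -6.56 for Krt16, -5.58 for Krt6a, -5.51 for Krt17, -3.86 for Krt6b, -2.19 for Krt14, -1.52 for Krt5, -1.22 for Krt75, -0.34 for Krt15 and -0.21 for Krt32. Under TGFβ the median difference was -1.38 and 4 of 9 members did not overlap, against 13.6% of genes. Krt6a, at 27.5 and 40.8 CPM in ΔHD2/fl and 0.870, 0 and 0 CPM in ΔHD2/-, was the furthest apart, and 3 members (Krt15, Krt75 and Krt32) were at or under the floor in all 5 lines. The log2 differences were -4.81 for Krt6a, -3.57 for Krt16, -3.33 for Krt17, -1.71 for Krt5, -1.38 for Krt14 and -0.43 for Krt6b. The TGFβ median rested on ΔHD2/fl line 2, without which it was 0.00, and on ΔHD2/- line 1, without which it was -0.60.

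The same loss in the ΔHD1 family was not used to choose the members and was tested. With limma, a gene counted as called where its p, adjusted over all 13270 genes by the Benjamini-Hochberg procedure, was 0.05 or less and its log2 fold change was 1 or more in size. Between ΔHD1/- and ΔHD1/fl lines 0 of 9 members were called without cytokine, under Wnt3a or under TGFβ, where the share of all genes called was 0.0678%, 0.0452% and 0.0301%. Krt15 and Krt32 reached at most 0.597 and 0.0951 CPM in any ΔHD1 library. That is too low for a difference of 1 in log2(CPM + 1), so limma could not call them. Without cytokine the same held for Krt17 (at most 0.595 CPM) and Krt75 (0.137 CPM). At an unadjusted p under 0.05 limma gave 1, 2 and 0 members and edgeR 1, 4 and 1, and edgeR also called 0. The log2 differences of Krt6a were -3.99 (adjusted p = 0.72), -4.59 (0.59) and -1.41 (0.89) in these treatments, and those of Krt16 were -2.20, -4.44 and -0.37. They were -2.99, -4.92 and -0.05 for Krt6b, -0.90, -1.61 and -0.27 for Krt14, -0.84, -1.07 and 0.64 for Krt5 and -0.52, -1.08 and -0.53 for Krt17. The rarer Krt15 (-0.39, -0.42 and -0.03), Krt75 (-0.12, -0.57 and 0.00) and Krt32 (0.03, -0.07 and 0.00) differed by less. ΔHD1/- lines were below ΔHD1/fl lines without overlap in 6, 6 and 2 of 9 members, against 16.1%, 9.95% and 22.7% of genes. In each count 1 member was at or under 3 reads in all 4 libraries, Krt75 without cytokine, Krt32 under Wnt3a and Krt6b under TGFβ, so its order rests on a few reads. Other orders were also near the floor, which the deleted lines did not exceed. These were Krt15 (0.274 to 0.597 CPM in ΔHD1/fl) and Krt17 (0.336 to 0.595 CPM) without cytokine. Under Wnt3a they were Krt15 (0.320 to 0.507 CPM) and Krt75 (0.0355 and 1.14 CPM), and under TGFβ Krt6a (0.336 and 4.51 CPM).

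ΔHD1/fl line 2 decided the Wnt3a comparison in this family. Krt16 under Wnt3a was at 1066 and 14.5 CPM in the ΔHD1/fl lines and at 5.66 and 4.29 CPM in the ΔHD1/- lines, and Krt6b was at 992 and 0 CPM against 0 and 0.0810 CPM. The floxed lines thus differed from each other more than line 2 differed from the deleted lines. Without ΔHD1/fl line 2, 4 members (Krt14, Krt6a, Krt6b and Krt16) were called lower, against 2.83% of genes, and without both lines of low Cdh1 3 were (Krt6a, Krt6b and Krt16), against 2.54%. The former leaves 1 floxed line and the latter 1 line against 1, so the spread comes from the other groups, and a lone line is assumed to vary as they do. The direction of Krt14 depended on which lines were set together. Its log2 difference of -0.90 without cytokine became 0.75 when ΔHD1/fl line 1 was left out, which leaves 1 floxed line, of low Cdh1. Between lines of the same number it was lower in the deleted line without cytokine (1594 against 3491 CPM and 223 against 356 CPM) and under Wnt3a (1328 against 10458 CPM and 228 against 269.8 CPM). Under TGFβ it was lower in line 1 (143 against 567 CPM) and higher in line 2 (87.3 against 31.7 CPM). The high fibroblast sum moved with both lines 2, and its part in these values was not tested.

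TGFβ, which drives an epithelial-mesenchymal transition in such cells, was compared with no cytokine as the mean over the 4 genotypes. The untreated ΔHD2 libraries, which took part in the choice of the members, enter it, so its counts are no independent support for a direction. In this mean 3 of 9 members were called, all lower, against 5.42% of all genes in either direction and 3.56% lower. The median log2 change of the members was -1.77 and that of all genes -0.16, or -0.02 with median-of-ratios scaling, under which 2 members were called. The 3 were Krt6a at -3.49 ± 0.68 (SE, limma adjusted p = 0.0022), Krt16 at -1.77 ± 0.58 (0.047) and Krt15 at -1.71 ± 0.44. The value of Krt15 is a description, since it passed the filter only through 5 ΔHD2 libraries that were untreated or given Wnt3a and so had to be lower with TGFβ. Krt14 (-2.09 ± 0.73, 0.059), Krt5 (-2.12 ± 1.03, 0.17), Krt6b (-1.80 ± 1.12, 0.29) and Krt17 (-0.40 ± 1.12, 0.85) were not called, and the sign of Krt17 turned with a pseudocount of 0.1 (0.05) and with edgeR (1.05). The values of Krt75 (-0.78) and Krt32 (-0.51) are a description, because the TGFβ response took part in their choice. Krt6b passed the filter through 8 libraries, none of them with TGFβ, which favoured a lower value with TGFβ.

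Since each line was cultured in all 3 treatments, the cell line also served as a block. With the block 5 of 9 members were called lower, against 8.92% of genes in either direction and 5.90% lower, and the added members were Krt14 (limma adjusted p = 4.4e-05) and Krt5 (0.0041). Untreated ΔHD2 libraries that took part in the choice enter this fit too, so these calls are no independent support for a direction. Krt6a was called in every alternative run (adjusted p 0.0011 to 0.023 by limma or edgeR), each of which holds such libraries. With the reads of Krt6a and Krt6b summed the change was -3.63 (limma adjusted p = 0.0047). The count depended on single lines. It fell to Krt6a alone without ΔHD1/- line 1, ΔHD1/- line 2 or ΔHD2/fl line 1. It fell to 2 (Krt5 and Krt6a) without ΔHD2/fl line 2, to 2 without ΔHD2/- line 2 or line 3, and rose to 5 without ΔHD1/fl line 2.

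Line by line, the plot of changes shows how uniform the direction was. Krt14 was lower with TGFβ in 9 of 9 lines, as were 15.7% of all genes. It went from 3491 to 567 CPM and from 356 to 31.7 CPM in ΔHD1/fl, from 1594 to 143 CPM and from 223 to 87.3 CPM in ΔHD1/-. The ΔHD2/fl lines went from 6788 to 1579 CPM and from 8746 to 2008 CPM. The ΔHD2/- lines went from 1000 to 282 CPM, from 1453 to 1025 CPM and from 1207 to 1106 CPM. The first 6 lines and ΔHD2/- line 1 were thus 2.56 to 11.2 times lower, and ΔHD2/- lines 2 and 3 only 1.42 and 1.09 times lower.

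Krt6a was also lower in 9 of 9 lines. It fell from 111 to 0.336 CPM and from 139 to 4.51 CPM in ΔHD1/fl, from 1.16 to 0.0397 CPM and from 27.8 to 0 CPM in ΔHD1/-. The ΔHD2/fl lines went from 312 to 27.5 CPM and from 873 to 40.8 CPM. In ΔHD2/- it went from 18.0 to 0.870 CPM in line 1 and from 0.495 and 0.712 CPM to 0 in lines 2 and 3. Only the ΔHD2/fl lines kept more than 5 CPM. The fall was 330-fold and 30.7-fold in ΔHD1/fl, 11.4-fold and 21.4-fold in ΔHD2/fl, and, against the floor of 3 reads per library, at least 258-fold in ΔHD1/- line 2.

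**Figure D2:**
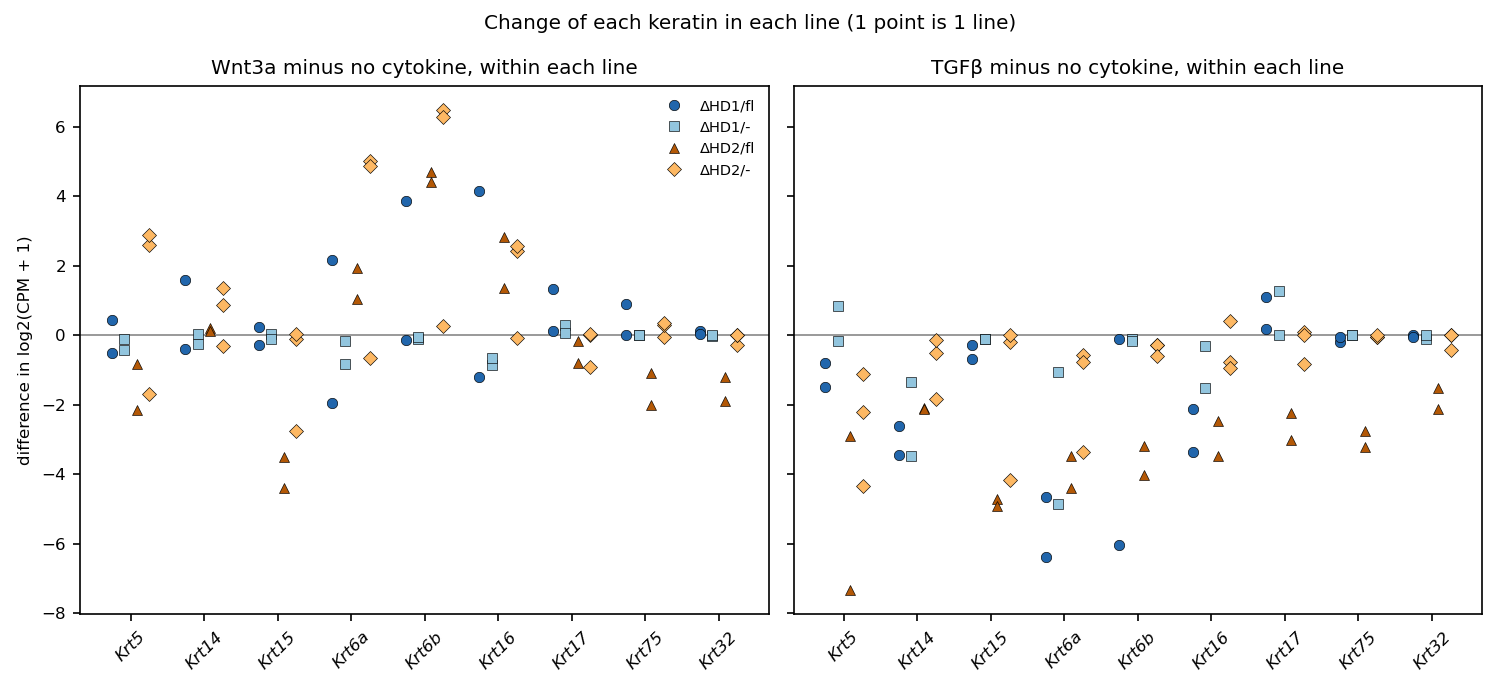
Difference in log2(CPM + 1) between the treated and the untreated library of the same line (vertical axis) for each of the 9 keratins (horizontal axis), with Wnt3a on the left and TGFβ on the right; each point is 1 of 9 lines and its colour and shape give the genotype. With TGFβ all 9 points of Krt14 and Krt6a lie below 0, while with Wnt3a the points of Krt6a, Krt6b and Krt16 split, up to 6.48 for Krt6b in ΔHD2/- line 2.

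Krt16 was lower with TGFβ in 8 of 9 lines, against 27.6% of genes lower in at least 8, and higher in ΔHD2/- line 1 (2.75 to 3.94 CPM). Krt5 was lower in 7 lines, higher in ΔHD1/- line 2 (0.920 to 2.45 CPM) and at the floor in ΔHD1/- line 1. In the ΔHD2/fl lines Krt5 went from 559 to 2.46 CPM and from 6826 to 909 CPM, so that the line with more Krt5 also kept more. Krt6b was lower in 7 lines and at the floor in the other 2, and reached at most 0.454 CPM with TGFβ. It passed the filter through 8 libraries, none of them with TGFβ, so its direction was fixed in part by the filter. Krt15 was at or under 0.0757 CPM with TGFβ in every line. Krt17 had no common direction, with 3 lines higher, 3 lower and 3 at the floor, and ΔHD2/fl line 2 kept 290 CPM.

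By genotype, with 2 or 3 lines each, few members passed the test. In ΔHD1/fl 0 of 9 were called (0.211% of genes; 2 members at an unadjusted p under 0.05 by limma and 3 by edgeR, which called 0), and with the cell line as block 2 were, Krt14 at -3.03 (limma adjusted p = 0.0050) and Krt6a at -5.52 (0.027), against 5.42% of genes. In ΔHD1/- 0 were called (1.43% of genes; 0 and 1 at an unadjusted p under 0.05), and with the block Krt14 at -2.40 (0.0076) against 9.33%. Neither ΔHD1 genotype took part in the choice of members. Krt15 and Krt32 reached at most 0.597 and 0.0951 CPM in the ΔHD1 lines, too low for limma to call them.

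The ΔHD2/fl response starts from the untreated libraries whose high levels chose the members, and Krt75 and Krt32 were also chosen for this response, so its values are a description. The log2 changes were -5.12 for Krt5, -4.80 for Krt15, -3.92 for Krt6a, -3.61 for Krt6b, -2.98 for Krt75, -2.97 for Krt16, -2.62 for Krt17, -2.11 for Krt14 and -1.81 for Krt32. Past the thresholds were 3 members, all lower (0.286% of genes in either direction and 0.203% lower), and 6 with the block (5.24% and 3.44%), and nothing is read from these counts. The first count was 2 without either ΔHD2/fl line and 0 with edgeR or with the ΔHD2 groups fitted alone. The ΔHD2/- response likewise starts from libraries that took part in the choice and is a description. The log2 changes were -2.54 for Krt5, -1.57 for Krt6a, -1.44 for Krt15, -0.82 for Krt14, -0.44 for Krt16, -0.39 for Krt6b, -0.24 for Krt17, -0.14 for Krt32 and -0.04 for Krt75, with 0 members past the thresholds with or without the block (0.806% and 6.03% of genes; 0 members at an unadjusted p under 0.05 by limma and 2 by edgeR, which called 0). The difference between the TGFβ responses of ΔHD2/- and ΔHD2/fl was 2.93 for Krt75 and 1.67 for Krt32. It was used to choose both genes and has no test here.

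Wnt3a activates β-catenin signalling. The untreated ΔHD2 libraries that took part in the choice of the members enter this mean too. As a mean over the 4 genotypes, limma called 0 of 9 members (0.0226% of genes; 3 members at an unadjusted p under 0.05 by limma and 1 by edgeR, which called 0). The cell line block also gave 0, against 0.241% of genes. The largest log2 changes were 2.66 ± 1.12 (SE) for Krt6b, -1.24 ± 0.44 for Krt15 (adjusted p = 0.86), 1.11 ± 0.58 for Krt16 and 1.04 ± 0.68 for Krt6a. Krt14 (0.32), Krt5 (-0.13), Krt17 (0.04), Krt75 (-0.22) and Krt32 (-0.39) had smaller changes. The signs of Krt75 (0.94 with edgeR), Krt5 (0.21 with edgeR) and Krt17 (-0.12 without ΔHD1/fl line 1) were not stable. Without ΔHD1/fl line 2 Krt16 was called (1.78, limma adjusted p = 0.031), and without ΔHD2/- line 1 Krt15 passed the thresholds (-1.01), a value that starts from its untreated ΔHD2/fl levels and is a description.

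The mean hid a split between lines. Krt6a, Krt6b and Krt16 were all higher with Wnt3a in the same 5 lines, ΔHD1/fl line 1, both ΔHD2/fl lines and ΔHD2/- lines 2 and 3, and Krt6a and Krt16 were lower in the other 4. Krt6b was also higher in 1 of those 4, ΔHD2/- line 1, at a low level (0.218 to 0.462 CPM, or 5 to 12 reads). Krt6b went from 67.7 to 992 CPM in ΔHD1/fl line 1, and in the ΔHD2/fl lines from 12.3 to 342 CPM and from 19.8 to 440 CPM. ΔHD2/- lines 2 and 3 went from 0.270 to 113 CPM and from 0.502 to 115 CPM. These levels were 14.7, 27.8, 22.1, 417 and 228 times the untreated ones, each from 1 library per treatment and not tested alone. The last 2 folds start from 0.270 and 0.502 CPM, which are few reads, so their size is uncertain. Krt16 went from 58.8 to 1066 CPM in ΔHD1/fl line 1, in ΔHD2/fl from 146 to 1050 CPM and from 332.05 to 851 CPM, and from 1.76 to 13.9 CPM and from 2.22 to 18.0 CPM in ΔHD2/- lines 2 and 3. Krt6a was 4.49, 3.86, 2.07, 95.4 and 68.9 times higher in the same order of lines, and its last 2 folds likewise start from under 1 CPM. The 4 lines without this pattern were the pair of low Cdh1, ΔHD1/- line 1 and ΔHD2/- line 1, and 2 of the 5 lines with it were the nearly identical ΔHD2/- lines. Low Cdh1 and a high fibroblast sum moved with the pattern in part, and their role was not tested.

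The balance between the Krt6 copies also moved in 3 of these 5 lines. Of the reads assigned to Krt6a or Krt6b, Krt6a took 62.1% without cytokine and 33.4% with Wnt3a in ΔHD1/fl line 1. It took 96.2% and 77.9% in ΔHD2/fl line 1 and 97.8% and 80.5% in ΔHD2/fl line 2. In ΔHD2/- lines 2 and 3 it took 29.6% and 30% with Wnt3a, where too few reads were present without it for a share. In ΔHD1/fl line 2, without the response, it took 99.9% and 100%. Reads that match both copies are missing from these shares.

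Krt5 and Krt15 went another way with Wnt3a. Krt5 was lower in both ΔHD2/fl lines (559 to 124 CPM and 6826 to 3809 CPM) and in ΔHD2/- line 1 (73.2 to 22.2 CPM), and 6.07-fold and 7.46-fold higher in ΔHD2/- lines 2 and 3. Krt15 was lower in the 3 lines that expressed it, in ΔHD2/fl from 24.9 to 0.242 CPM and from 29.9 to 1.75 CPM, and from 18.1 to 1.85 CPM in ΔHD2/- line 1. Krt14 was 3.00-fold higher in ΔHD1/fl line 1, 1.81-fold and 2.57-fold higher in ΔHD2/- lines 2 and 3, and within 1.32-fold of its untreated level in the other 6 lines. The Krt14 to Krt5 ratio per kb with Wnt3a was 45.9, 4.40 and 4.86 in ΔHD2/- lines 1, 2 and 3. It was 78.8 and 3.09 in ΔHD2/fl lines 1 and 2.

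By genotype, the Wnt3a response of ΔHD2/fl also starts from the libraries that chose the members and is a description. The log2 changes were 4.55 for Krt6b, 2.10 for Krt16, 1.498 for Krt6a, 0.16 for Krt14, -0.48 for Krt17, -1.501 for Krt5, -1.54 for Krt75, -1.55 for Krt32 and -3.94 for Krt15. Past the thresholds was Krt32 alone (0.113% of genes), which passed the filter only through the untreated ΔHD2/fl libraries and so had to differ, and with the cell line as block also Krt15 and Krt75 (0.324%). Leaving out ΔHD2/fl line 1 gave 0 such members, and leaving out ΔHD2/- line 1 gave 2. In ΔHD2/-, for the same reason a description, the log2 changes were 4.34 for Krt6b, 3.08 for Krt6a, 1.64 for Krt16, 1.27 for Krt5, 0.64 for Krt14, 0.20 for Krt75, -0.09 for Krt32, -0.29 for Krt17 and -0.94 for Krt15, with 0 members past the thresholds (0.00754% of genes; 2 at an unadjusted p under 0.05 by limma and 2 by edgeR, which called 0). The ΔHD1 genotypes gave 0 called members (0.0151% of genes in ΔHD1/fl and 0.00754% in ΔHD1/-). At an unadjusted p under 0.05 limma gave 0 and 0 members and edgeR 1 and 0, with 0 called. Krt15 and Krt32 were too low in the ΔHD1 lines for limma to call them. The difference in Wnt3a response between deleted and floxed lines was called for 0 members in ΔHD1 (0.0% of genes; 0 and 1 at an unadjusted p under 0.05 by limma and edgeR, which called 0). In ΔHD2 this difference contains the untreated difference that chose the members, so it is a description and nothing is read from its counts. It was 3.00 for Krt15, 2.77 for Krt5, 1.74 for Krt75, 1.58 for Krt6a, 1.46 for Krt32, 0.48 for Krt14, 0.19 for Krt17, -0.21 for Krt6b and -0.46 for Krt16, with 0 members past the thresholds (0.0151% of genes; 3 and 0 members at an unadjusted p under 0.05 by limma and edgeR, which called 0) and Krt32 past them with the block or without ΔHD1/fl line 1 or line 2. Without ΔHD2/- line 1 Krt15 was past them in its place.

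The share of all keratin transcripts held by the members was lower with TGFβ. Summed per kb of exon, the 5 type I members made up 36.3% to 98.5% of all type I keratin without cytokine (median 87.8%), 26.7% to 98.1% with Wnt3a and 9.78% to 89.9% with TGFβ (median 61.8%). The share was lower with TGFβ than without cytokine in all 9 lines. The 4 type II members made up 0.0775% to 84.8% without cytokine (median 12.5%) and 0.00168% to 41.2% with TGFβ (median 0.982%), again lower in all 9 lines, and the highest untreated shares were 84.8% in ΔHD1/fl line 2 and 78.6% in ΔHD2/fl line 2. In ΔHD1/fl line 2 this high share stood on very little keratin, since Krt8 was at 0.336 CPM there. Type I exceeded type II keratin per kb by a median of 2.14 times without cytokine (0.237 to 3.49) and 1.30 times with TGFβ (0.0519 to 1.62). It was below type II in ΔHD1/- line 2 in both, and in ΔHD1/- line 1 (0.854) and ΔHD2/- line 1 (0.941) with TGFβ.

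**Figure D3:**
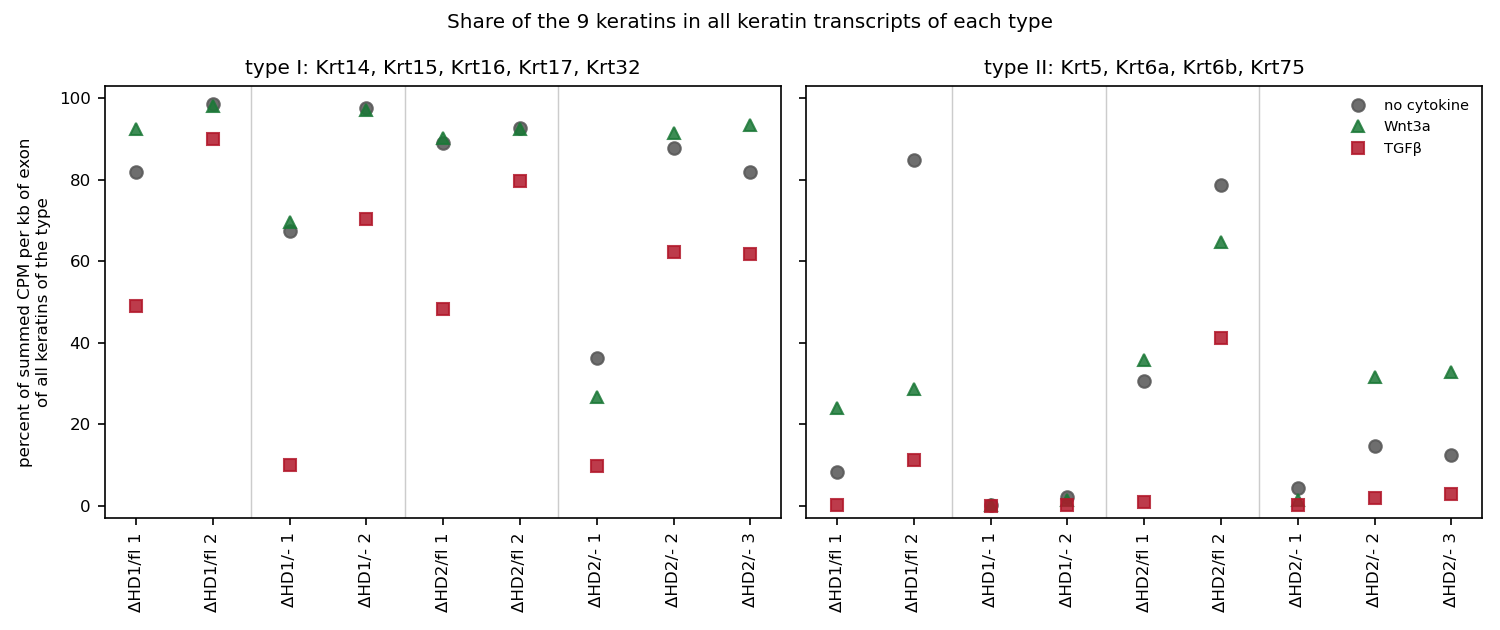
Percent of the summed CPM per kb of exon of all type I keratins (left) and all type II keratins (right) that came from the 9 members, on the vertical axis, in the 9 lines on the horizontal axis; each point is 1 library and its colour and shape give the treatment. In both panels the TGFβ point lies below the untreated point in all 9 lines, with medians of 61.8% against 87.8% for type I and 0.982% against 12.5% for type II.

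The other keratins were compared in the same fit. With TGFβ (mean over genotypes) 0 of 6 type I and 1 of 10 type II keratins outside the list were called, Krt79 at -3.48 (limma adjusted p = 0.015), a share near the 5.42% of all genes. With the cell line as block Krt7, a luminal type II keratin, was called higher (1.28, 0.0085). Krt8 was higher with TGFβ in 7 of 9 lines and lower in ΔHD1/fl line 1 and ΔHD2/fl line 2 (0.64 ± 1.33, 0.79). With Wnt3a 0 of the 6 and 0 of the 10 were called with or without the block.

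The profiles of the members were compared over the 27 libraries, which share lines and treatments and are not independent. Krt6a and Krt16 were the most alike of the 36 pairs (r = 0.90), followed by Krt15 with Krt32 (0.88), Krt75 with Krt32 (0.86) and Krt6b with Krt16 (0.81). Krt15, Krt75 and Krt32 were above 1 CPM in few libraries, mainly the untreated ΔHD2/fl libraries that chose them, so their likeness was fixed in part by that choice. Krt6a with Krt6b reached 0.76, and the pair least alike was Krt15 with Krt6b (0.18). Outside the keratins, the profiles nearest to Krt6a were Sprr1b (0.87), a cornified envelope precursor, Dmkn (0.84), Hopx, Calml3 and Fbp2 (0.80 each). Nearest to Krt14 were Zfp750, a transcription factor of keratinocyte differentiation, Rassf10, Pafah2, Grhl1 and Dcaf4 (0.89 to 0.90). Nearest to Krt17 was Col17a1 (0.95), the hemidesmosome collagen, then Bmp7, Sbspon, Gal3st1 and Slc1a2 (0.90 to 0.92), and nearest to Krt5 were Chl1, Wfdc18, Mon1a, Enpp3 and Galnt18 (0.88 to 0.92).

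Transcription factors known for control of keratinocyte genes were compared in the same way. Of 20 such genes, 7 were called lower and 0 higher with TGFβ as the mean over genotypes (3.56% and 1.86% of all genes), with a median log2 change of -1.64. With the cell line as block 12 were called lower and 1 higher (5.90% and 3.02%). The largest were Barx2 at -3.35 (limma adjusted p = 0.023), Trp63 at -2.73 (0.047), and the grainyhead factors Grhl3 at -2.46 (0.0053) and Grhl1 at -2.29 (0.023). Trp63 encodes p63, the main regulator of basal epithelial identity. Without cytokine it stood at 27.2 and 180 CPM in ΔHD1/fl, 9.96 and 75.8 CPM in ΔHD1/-, 31.0 and 82.8 CPM in ΔHD2/fl, and 46.8, 0.721 and 0.209 CPM in ΔHD2/-. It was thus highest in a line with 1.04 CPM of Krt5 and near the floor in ΔHD2/- lines 2 and 3, which held 123 and 107 CPM of Krt5. With Wnt3a 0 of the 20 were called with or without the block.

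**Figure D4:**
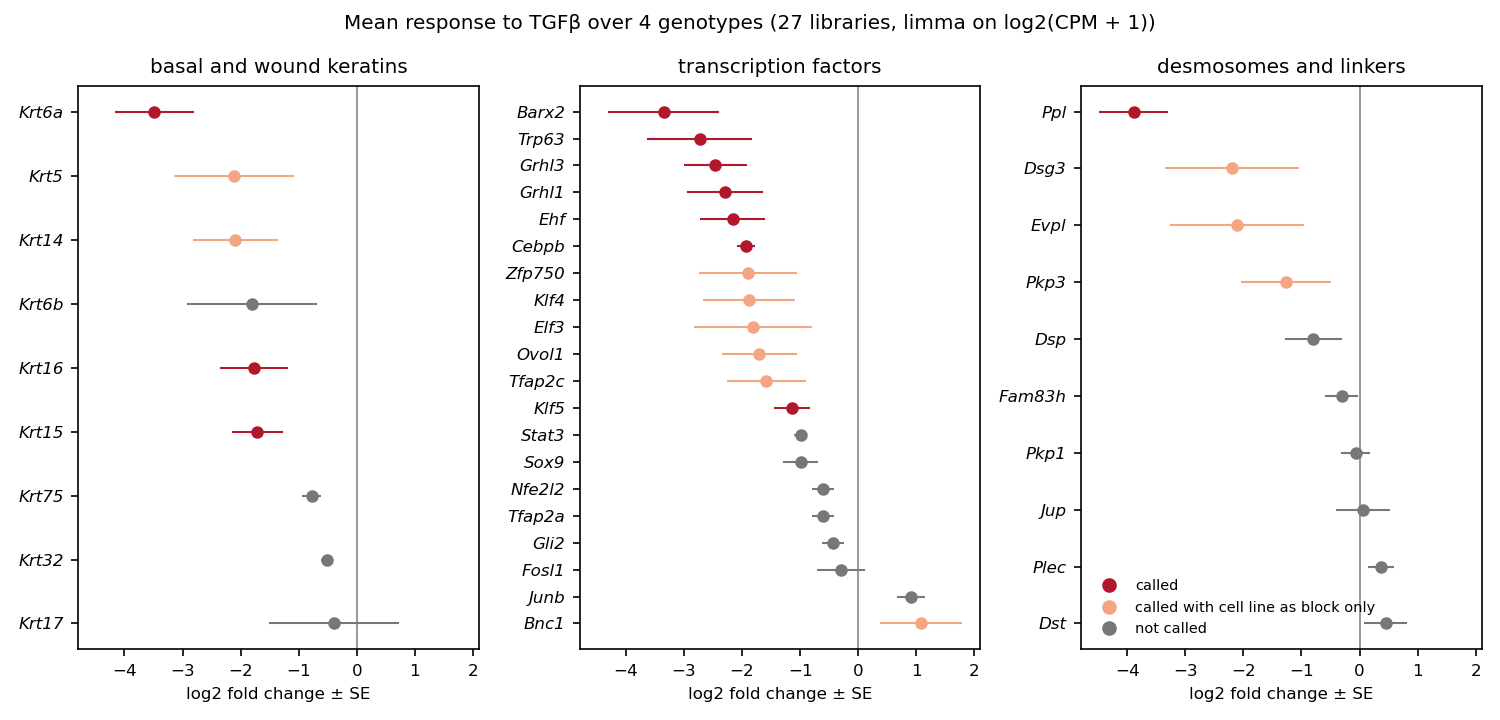
Mean log2 fold change with TGFβ over the 4 genotypes (horizontal axis, point ± SE, limma on 27 libraries) for the 9 keratins, 20 transcription factors and 10 desmosomal and linker genes; red points were called, orange points only with the cell line as block, and grey points were not called. Krt6a, Krt16 and Krt15 are red among the keratins, 7 of 20 factors are red and all of these lie below 0, and Ppl is the red point among the linkers. The value of Krt15 is a description, since the filter on low values fixed its direction.

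Genes whose proteins tie keratin filaments to desmosomes and hemidesmosomes were compared next. Of 10 tested, 1 was called lower with TGFβ (3.56% of all genes), Ppl, the plakin periplakin, at -3.89 (limma adjusted p = 4.0e-04). With the block 4 were called lower (5.90% of all genes), and 0 were higher in either fit. Of 14 genes of basal adhesion, 1 was called higher (Cd44, 1.35, 0.021) and 2 lower (Trp63, which stands in both lists, and Itga6, the hemidesmosome integrin, at -2.12, 0.0043), with a median of -0.06, where 1.86% and 3.56% of all genes were called. With the block 3 were higher and 5 lower (3.02% and 5.90%). The summed level of the 14 was 3884 to 7034 CPM without cytokine and 4237 to 13008 CPM with TGFβ.

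Genes that activated keratinocytes induce beside Krt6 and Krt16 moved in both directions. Of 21 tested, 4 were called higher and 3 lower with TGFβ (1.86% and 3.56% of all genes), and 7 and 4 with the block (3.02% and 5.90%). Mmp9 and Mmp10, matrix proteases of wound edges, changed by 5.13 (limma adjusted p = 0.0096) and 3.68 (0.012), and Itga5, a fibronectin receptor subunit, by 2.92 (4.8e-04), whereas Slpi, a protease inhibitor, fell by 4.77 on the log2 scale (3.6e-05). Krt6a and Krt16 were called lower in the same fit. With Wnt3a 0 of the 21 were called with or without the block.

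Markers of other cell types were set beside these results. Of 18 luminal marker genes, 2 to 12 were above 1 CPM in a library without cytokine, and their summed level was 53.9 to 5681 CPM. Krt19 was at 6.29 CPM or less everywhere and at 0 in 16 libraries. Of 8 contractile myoepithelial markers, 0 to 6 were above 1 CPM, with sums of 0.315 to 83.4 CPM without cytokine and 0.555 to 2670 CPM with TGFβ. The fibroblast sum was high in the lines of low Cdh1, as given above, and leukocyte and endothelial markers summed to at most 25.5 CPM in any library. With TGFβ (5.42% of all genes called) 0 of 14 luminal and 0 of 7 fibroblast genes tested were called, 1 of 6 myoepithelial genes was called lower (Oxtr, -1.88) and 1 of 3 leukocyte or endothelial genes was called higher (Cdh5, 1.20). With the cell line as block (8.92% of all genes called) 2 luminal genes were called higher (Cldn4, 1.81, limma adjusted p = 4.8e-04, and Krt7) and 3 lower (among them Esr1, -1.20, and Prlr, -1.15), 1 fibroblast gene was called higher (Col1a1, 1.21, 0.015), and the contractile genes Acta2 (2.01, 0.032) and Tagln (1.65, 0.038) were called higher beside Oxtr. With Wnt3a 0 were called in any of these lists. The part of these markers in the keratin differences was not tested.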

How the data were processed

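RNA of 27 libraries (9 lines, 3 treatments) was sequenced by the authors as single reads (101 bases per the labels) from stranded poly(A)-selected libraries. Per the labels and methods, reads were aligned to mm10 with STAR, kept where they had a unique hit, and counted with QuasR in exons of RefSeq genes. The deposited values are CPM (counts per 1000000 reads), computed by the authors without other scaling. The sources name different sequencers, and the version of STAR is not given in the sources used here. CPM steps gave whole reads for 100% of the values (within 0.01 of a whole number), so edgeR was run on recovered reads as an alternative.

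Gene symbols matched 24374 of 24454 identifiers. A gene was kept where 2 or more libraries held 1 CPM or more (13270 genes), and limma 3.58.1 in R 4.3.3 (robust eBayes with a trend) was fitted to log2(CPM + 1) with 12 group means over all 27 libraries. Fold changes are on that scale and are therefore too small for genes of low level. The thresholds were those in the study's methods for differential expression, an adjusted p of 0.05 and an absolute log2 fold change of 1; a looser fold that the study used for gene lists shared between mutants was not used. The fit was tested on simulated data before use.

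The members and gene lists were chosen with earlier results of these data known. All 9 members were to be named in every comparison; within ΔHD1/fl and ΔHD1/- and for differences in response outside ΔHD2 with Wnt3a, only those called or chosen by the contrast are given. For likeness, the 5 genes with the highest correlation are named for Krt5, Krt14, Krt6a and Krt17. From each list at most 4 genes are named, those with the largest change among the called. Krt8 and Krt7 were named after their values were seen, as were Cdh1, Vim, Krt19 and the levels of Trp63. Lines are numbered as in the labels.

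Each line received all 3 treatments and is a pair by design; deviations of a line from its group correlated across treatments at r = 0.509 to 0.94 over 27 comparisons. Whether floxed and deleted lines of the same number came from one tumour is not given in the sources used here (r = 0.087 to 0.472 over 12), and they were not paired. P-values of the main fit measure the spread between lines of a group, and the 3 libraries of a line enter it as if independent. Those with the cell line as block measure how the response to treatment varies between lines. Both count ΔHD2/- lines 2 and 3 as separate lines. Results were recomputed with median-of-ratios scaling, a pseudocount of 0.1, no filter, edgeR 4.0.16 with TMM scaling, the compared groups alone, a block, each line left out, ΔHD2/- lines 2 and 3 averaged, and Krt6a and Krt6b summed. Leaving out both lines of low Cdh1 was added after seeing the data. Sequences were compared with Biopython 1.88.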

Additional observations from a re-analysis of the deposited data

How the results depend on the processing

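Counts of called members and median differences were recomputed under each alternative. With a pseudocount of 0.1 the TGFβ mean gave 5 members, the Wnt3a response of ΔHD2/fl 0, and the median difference of ΔHD2/- from ΔHD2/fl was -5.25 without cytokine and -1.65 under TGFβ. With edgeR the TGFβ and Wnt3a responses of ΔHD2/fl gave 0 and 0, and those medians were -5.57 and -3.96. With the compared groups alone both responses of ΔHD2/fl gave 0. With no filter the difference in Wnt3a response of ΔHD2 gave 1. With ΔHD2/- lines 2 and 3 averaged the TGFβ median was -1.70. Without both lines of low Cdh1, ΔHD1/- against ΔHD1/fl under Wnt3a gave 3, from 1 line against 1 with the spread of the other groups (2.54% of genes were called lower).

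With a replicate block (the cell line for treatments, the number for genotypes) the TGFβ mean gave 5, TGFβ in ΔHD1/fl, ΔHD1/- and ΔHD2/fl 2, 1 and 6, Wnt3a in ΔHD2/fl 3, the difference in Wnt3a response of ΔHD2 1, and the TGFβ median of ΔHD2/- against ΔHD2/fl -1.61. Whether lines of the same number share a tumour is not given in the sources used here. The block moved no other count of called members by over 1.5 times.

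Leaving out 1 line, the counts ran from 1 to 5 for the TGFβ mean, 0 to 1 for the Wnt3a mean, 2 to 3 for TGFβ and 0 to 2 for Wnt3a in ΔHD2/fl, 0 to 4 for ΔHD1/- against ΔHD1/fl under Wnt3a, and 0 to 1 for the difference in Wnt3a response of ΔHD2. The median of ΔHD2/- against ΔHD2/fl ran from -4.08 to -2.71 without cytokine, -3.99 to -1.59 under Wnt3a and -1.72 to 0.00 under TGFβ.

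Some log2 values changed sign, and the cause was not tested. Krt17 with TGFβ was 0.05 with a pseudocount of 0.1 and 1.05 with edgeR. Krt75 with Wnt3a was 0.01 and 0.94 in these settings. Krt5 with Wnt3a was 0.21 with edgeR, 0.02 without both lines of low Cdh1 and -0.34 to 0.23 with a line left out. Krt17 with Wnt3a ran from -0.12 to 0.19 with a line left out. In ΔHD1/- against ΔHD1/fl, Krt14 ran from -2.55 to 0.75 without cytokine, -4.24 to 1.03 under Wnt3a and -2.33 to 1.79 under TGFβ, and Krt6b from -9.90 to 0.06 under Wnt3a. Over all single members 680 values kept direction and side of the threshold, 34 lost a call, 33 gained one and 16 reversed.

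Depth limits Krt15, Krt32, Krt75 and Krt6b, which were at or under 3 reads in 17, 22, 20 and 12 of 27 libraries. With 2 or 3 lines per group, single lines decide several counts. Reads that match both Krt6 copies are lost, and their number is unknown.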

Other observations

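The ratio of Krt14 to Krt5 per kb of exon differed between the lines of ΔHD2/fl in each treatment. In line 1 it was 15.2 without cytokine, 78.8 with Wnt3a and 803 with TGFβ, whereas in line 2 it was 1.60, 3.09 and 2.76. In the ΔHD2/- lines it was 14.1 to 17.1 without cytokine and 131, 49.1 and 28 with TGFβ. With TGFβ the ratio was thus higher than without cytokine in all 5 ΔHD2 lines. No ratio was tested.

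As a share of all reads, the 9 keratins together took 0.0260% to 1.82% without cytokine (median 0.158%), 0.0248% to 1.71% with Wnt3a (median 0.356%) and 0.00455% to 0.328% with TGFβ (median 0.0574%).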
